A study of Mus musculus with 464 samples.

Results

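The 10 genes of the Wnt pathway described here were followed through single mouse cells differentiated with retinoic acid. They are 3 secreted inhibitors (Sfrp1, Sfrp2 and Dkk1), 4 feedback genes that Wnt signalling itself induces (Axin2, Nkd1, Sp5 and Lgr5) and 3 transcription factors of the TCF/LEF family (Lef1, Tcf7 and Tcf7l1). They were chosen by name, and all 10 are among the 21973 genes of the table. The cells came from R1, a mouse embryonic stem cell line that had been maintained in medium holding 15% serum replacement and LIF at 1000 U/ml. Hanging drops gave embryoid bodies within 48 hours, and these received retinoic acid for 4 days at 0.5 mM, the dose in the labels. Fluidigm C1 capture of single cells was followed by SMART-Seq V4 cDNA synthesis and Nextera XT libraries. Every sample carries the same label and no separate cultures are named, so the cells are 1 sample, there is no untreated group, and no p-value is given.

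Wnt proteins bind Frizzled receptors and LRP coreceptors, which stops the destruction complex from degrading beta-catenin. Beta-catenin then joins TCF/LEF factors on DNA and turns on targets, several of which, such as Axin2 and Nkd1, dampen the signal again. Secreted inhibitors act outside the cell: Sfrp proteins can bind Wnt ligands, and Dkk1 binds the LRP coreceptors. In the embryo this signal helps to set the back end of the body axis and the dorsal neural tube, and visceral endoderm secretes inhibitors of it.

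Expression is in TPM, a share of transcripts corrected for gene length, and a gene was called detected at 1 TPM or more. TPM keeps no sequencing depth, so depth per cell is unknown, and the number of genes above 0 stands in for it. After removal of 6 columns with under 2000 genes above 0 or over 20% of their total on mitochondrial genes, 55 columns of one column set each still had a near copy in the other set (correlation of log2(TPM + 1) of 0.95 to 0.99, against at most 0.92 for any other 2 columns). The pairs were taken as repeat measurements of 1 cell, and 1 column of each was used. The distinct cells that remained had a median of 6740 genes above 0. Sets 1 and 2 are taken from a number in the column names, and what the number stands for is not stated. Values given within a set use all its kept columns, so the 55 repeated cells enter both sets. The 2 sets are therefore not separate cells, and a result found in both is not an independent check. Shares have exact Clopper-Pearson 95% intervals, which cover counting error only.

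Cells were sorted into states by 3 lists of 12 markers each. A cell had a state when at least 6 of the 12 markers were at 5 TPM or more. The endoderm state held 64 cells (15.9% of the distinct cells), the mixed state, with endoderm markers together with neural ones, 42 cells (10.4%), the progenitor state 31% of the cells (73 with Pax3 or Pax7 and 52 without) and the neuron state 36.2% (87 with at least 6 progenitor markers and 59 with fewer). No state was given to 26 cells. A state is a range of marker counts and not a cell type: 28 and 35 cells had exactly 5 and 6 progenitor markers, 21 and 21 had 5 and 6 neuron markers, and 2 and 4 had 5 and 6 endoderm markers. Endoderm, mixed, progenitor and neuron-state cells had medians of 6117.5, 8119.5, 6784 and 6916.5 genes above 0. Of 8 early mesoderm markers, 0 were detected in 10% of the cells of any state, and Mesp1, Tbx6 and Msgn1 were detected in none. Of 8 neural crest markers 2 reached that share in the progenitor state and 4 in the neuron state. Sox9, which neural progenitors also express, led in both, at 94.4% and 76%. Of 8 endothelium and blood markers 1 reached the 10% share in the endoderm state, Cdh5 at 14.1%, and 0 in the progenitor state. Of 8 pluripotency markers 3 reached it in the endoderm state, where Klf4 was at 96.9% and Nanog, Esrrb, Tdgf1 and Dppa3 were detected in none. The sum of these 8 ran from 3.87 to 174.8 TPM in endoderm-state and from 0 to 32 TPM in progenitor-state cells.

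Stretches of DNA before a RefSeq transcript start of 4 of these genes are shown because they belong to members that stood on opposite sides of the endoderm comparison below (Sfrp2 and Nkd1 against Dkk1), and because Dkk1 and Sp5 are the members whose start region held a TCF/LEF motif. The motif forms searched, on both strands, were CTTTGAT and CTTTGAA, in windows of 250 bases before and 50 bases after a RefSeq transcript start (assembly GRCm38.p6, the same as mm10). Windows were at hand for 8 of the 10 members, all but Sfrp1 and Lgr5. One or both forms were present in 8.65% of all 32851 windows. The starts used for Sfrp2 and Nkd1 lie inside the gene spans given below, and those of Sp5 and Dkk1 at the end of theirs. Capitals mark the motif, and the letters run 5′ to 3′ along the gene. A match is a description of letters, not a binding site.
Sfrp2, 250 bases before the transcript start, plus strand, chr3:83766071-83766320: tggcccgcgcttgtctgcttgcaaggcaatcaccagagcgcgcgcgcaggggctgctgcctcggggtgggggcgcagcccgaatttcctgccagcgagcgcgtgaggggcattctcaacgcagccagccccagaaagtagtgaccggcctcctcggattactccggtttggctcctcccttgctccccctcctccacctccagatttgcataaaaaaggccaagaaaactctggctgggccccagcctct
Nkd1, 250 bases before the transcript start, plus strand, chr8:88527383-88527632: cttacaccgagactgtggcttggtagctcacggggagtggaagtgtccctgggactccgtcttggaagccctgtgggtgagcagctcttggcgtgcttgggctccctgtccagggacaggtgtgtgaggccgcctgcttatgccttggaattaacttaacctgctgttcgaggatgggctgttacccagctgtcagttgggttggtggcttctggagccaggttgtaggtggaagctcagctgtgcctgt
Sp5, 250 bases before the transcript start, plus strand, chr2:70474673-70474922: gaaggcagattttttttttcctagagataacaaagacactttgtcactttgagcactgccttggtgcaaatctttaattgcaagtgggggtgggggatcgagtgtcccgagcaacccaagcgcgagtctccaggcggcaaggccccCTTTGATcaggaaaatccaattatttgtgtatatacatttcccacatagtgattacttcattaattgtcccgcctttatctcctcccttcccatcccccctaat
Dkk1, 30 bases around the motif, minus strand, chr19:30549595-30549624: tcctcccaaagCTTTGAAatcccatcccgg

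The windows of Sfrp2, Nkd1, Axin2, Lef1, Tcf7 and Tcf7l1 held neither form.

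Over all distinct cells the inhibitor Sfrp2 and the factor Tcf7l1 were the members found in most cells. Sfrp2, on chromosome 3 (83765750 to 83774314), was detected in 71.7% of cells (95% interval 67 to 76.1), from 0 to 1318.9 TPM with a median of 33.6 TPM. Tcf7l1, on chromosome 6 (72626371 to 72789045), was detected in 63.5% (58.6 to 68.2), with a median of 5 TPM and a highest value of 110.6 TPM. Sfrp1, on chromosome 8 (23411383 to 23449632), followed with 57.3% (52.3 to 62.2) and overlapped the interval of Tcf7l1 but not that of Sfrp2. Nkd1 was detected in 34% (29.4 to 38.8), Lgr5 in 23.1% (19.1 to 27.5), Axin2 in 19.1% (15.4 to 23.3) and Tcf7 in 16.6% (13.1 to 20.6), and neighbours among the last 3 did not differ beyond their intervals. Dkk1 was found in 24 cells (5.96%), and Sp5 and Lef1 in 5 cells each (1.24%). Over all kept columns the shares of the 10 members lay within the intervals of the distinct cells, with 73.6% for Sfrp2 and 63.5% for Tcf7l1. Within set 1 and set 2, Nkd1 was detected in 39.7% and 29.5% of columns, and the set 1 value lay above the pooled interval.

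**Figure D1:**
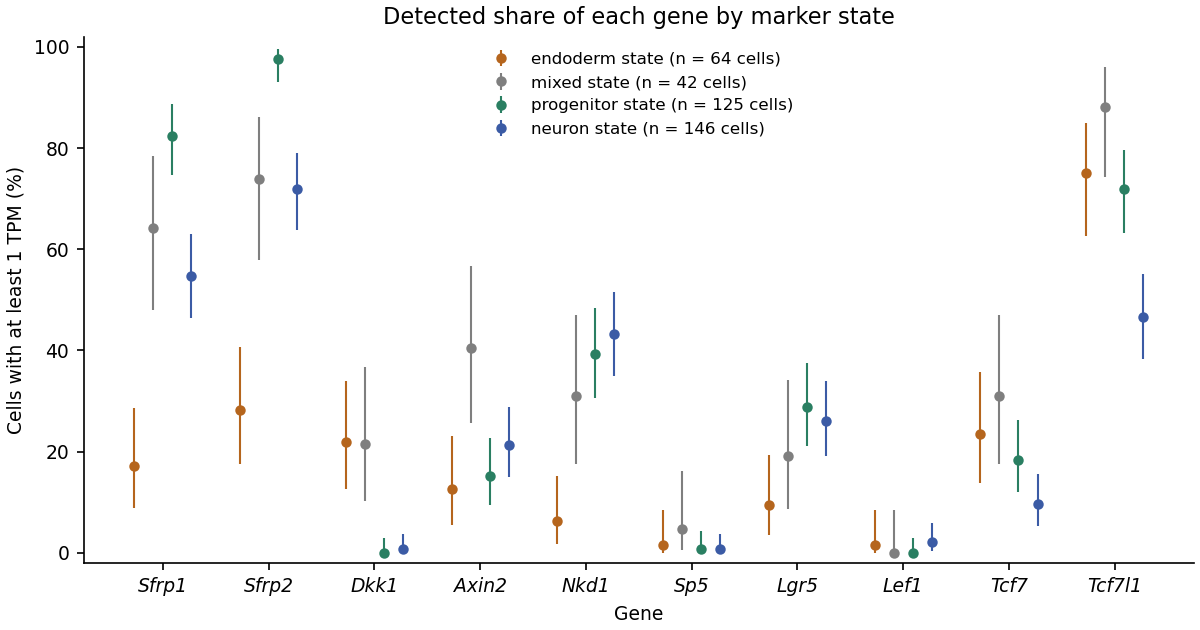
Percent of distinct cells with at least 1 TPM (y axis) for each of the 10 genes (x axis) in endoderm, mixed, progenitor and neuron states, with points for the share and bars for exact 95% intervals. Sfrp1 and Sfrp2 are highest in the progenitor state, at 82.4% and 97.6%, and Dkk1 is at 0% there against 21.9% in the endoderm state.

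The repeat columns give part of the technical error of each member. Among the 55 cells measured in both sets, Sfrp1 was detected in both columns of 36 cells, in neither of 19 and in 1 of the 2 columns of 0 cells. For Sfrp2 both columns had it in 43 cells and 1 column in 6, with at most 5.14 TPM in the column that did. Where both columns had the gene, the median ratio between them was 1.14-fold for Sfrp2 and 1.21-fold for Sfrp1. Tcf7l1 was less repeatable, with 30 cells where both columns had it, 11 where 1 did and a median ratio of 1.38-fold. The corresponding median ratios were 1.42-fold for Nkd1, 1.5-fold for Axin2 and 1.66-fold for Lgr5, and 1 column alone had the gene in 4, 4 and 2 cells. Detection of Dkk1, Sp5 and Lef1 was the same in both columns of all 55 cells, though only 4, 2 and 1 of these cells had the gene. That a pair is 1 captured cell was inferred from the correlation, and whether its columns share cDNA or library is not stated. Error in any step that a pair shares does not show in these values.

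**Figure D2:**
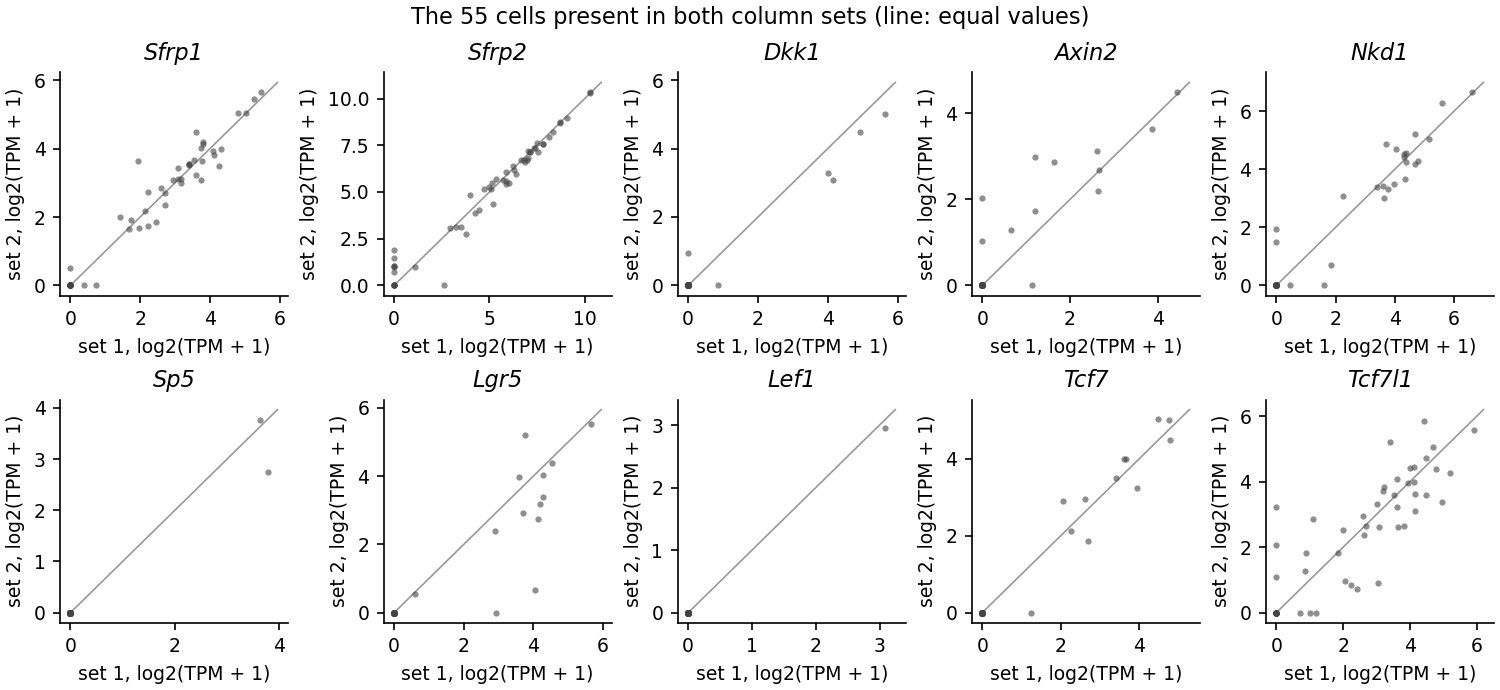
Level in column set 2 (y axis) against column set 1 (x axis), as log2(TPM + 1), for the 55 cells present in both sets, with 1 point per cell and a line at equal values. Points of Sfrp2 lie close to the line, with a median ratio of 1.14-fold, and those of Tcf7l1 scatter more widely, with 11 cells where 1 column alone reached 1 TPM.

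The next comparison sets endoderm-state against progenitor-state cells. A gene was called higher or lower when its mean TPM differed at least 2-fold, its detected share differed the same way by at least 10 percentage points, and it was detected in at least 10 cells of both states together. Of the 10 members 4 were lower in the endoderm state (Sfrp1, Sfrp2, Nkd1 and Lgr5) and 1 was higher (Dkk1). By the same rule 20.4% of 12013 genes were lower and 14.6% were higher. Sp5 and Lef1 did not reach 10 cells and could not be called. The median log2 fold of the 8 remaining members was -1.10, against -0.25 over all genes tested. Endoderm-state cells had fewer genes above 0, with a median of 6117.5 against 6784. Among endoderm-state cells with fewer and with more genes, Sfrp2 was detected in 18.8% and 37.5%, Nkd1 in 0% and 12.5%, and Dkk1 in 12.5% and 31.2%. Axin2 went the other way, at 18.8% and 6.25%, as did Sp5 and Lef1 in 1 cell each. The part of gene number was not tested.

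Sfrp2 had the widest gap. In the 64 endoderm-state cells it ran from 0 to 157.2 TPM with a median of 0, and in the progenitor-state cells from 0 to 1318.9 TPM with a median of 109.4 TPM. Its ranges overlapped, but the upper quartile in the endoderm state was 1.49 TPM and the lower quartile in the progenitor state 37.9 TPM. Mean TPM was 9.32 against 181.3, or 19.5-fold lower, and the detected share was 28.1% (17.6 to 40.8) against 97.6% (93.1 to 99.5). Within sets 1 and 2 the mean was 32.2-fold and 13.1-fold lower, and over all kept columns 18.8-fold lower. The 5 highest of the 64 endoderm-state cells held 75.9% of the summed Sfrp2 there, and the log2 fold, -4.28, became -6.20 when markers counted from 1 TPM.

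Sfrp1, its close relative, differed the same way at a lower level. It ran from 0 to 33.1 TPM with a median of 0 in the endoderm state and from 0 to 43.2 TPM with a median of 7.26 TPM in the progenitor state. It was detected in 17.2% (8.90 to 28.7) against 82.4% (74.6 to 88.6), and its mean was 4.5-fold lower. The fold was 4.54 and 3.92 within the sets and 4.17 over all kept columns.

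Dkk1, on chromosome 19 (30545876 to 30549496), went the other way. It ran up to 72.3 TPM in the endoderm state, where 14 of 64 cells had it (21.9%, 12.5 to 34) at a mean of 6.07 TPM over the 64 cells. It was listed at 0 in all progenitor-state cells, and taking 3 counts of the total as the limit of a count of 0, this allows a share of up to 2.40% (Clopper-Pearson upper bound 2.91%). Most endoderm-state cells therefore lacked it as well, and their median was 0. Of the 24 cells with Dkk1 anywhere, 14 were in the endoderm state, 9 in the mixed state and 1 in the neuron state, where it stood at 11.7 TPM. Within sets 1 and 2 the endoderm-state share was 25% and 16.7% against 0% and 0%, but under 10 cells had the gene in each set and the call could not be made there. It was called over all kept columns, at 20.8%.

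Among the feedback genes, Nkd1, on chromosome 8 (88521342 to 88594887), was detected in 6.25% (1.73 to 15.2) of the endoderm-state and 39.2% (30.6 to 48.3) of the progenitor-state cells. Its highest values were 23.6 and 42.4 TPM, both medians were 0, and the mean was 5.98-fold lower in the endoderm state, with 5.33-fold and 14.9-fold within sets 1 and 2. Lgr5, an R-spondin receptor gene on chromosome 10 (115450314 to 115587780), was detected in 9.38% (3.52 to 19.3) against 28.8% (21.1 to 37.6), with a mean of 0.94 against 4.2 TPM. A single progenitor-state cell reached 128.7 TPM of Lgr5. The mean was 4.46-fold lower, with 2.84-fold and 10.3-fold within sets 1 and 2, and by differences of mean log2(TPM + 1) its gap was -0.71 and it was not called. Axin2, on chromosome 11 (108917828 to 108950783), the feedback gene most often used as a readout of the pathway, was not called: it was detected in 12.5% (5.55 to 23.2) against 15.2% (9.41 to 22.7), and its mean was 1.25 against 0.80 TPM. Its fold had opposite directions in the 2 sets, with log2 values of -0.61 and 1.97. Sp5, on chromosome 2 (70474923 to 70477726), was detected in 1 cell of each state.

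Of the TCF/LEF factors none was called. Tcf7l1, which mostly represses targets when beta-catenin is low, was detected in 75% (62.6 to 85) of the endoderm-state and 72% (63.3 to 79.7) of the progenitor-state cells, at means of 11.6 and 11.9 TPM. Tcf7, on chromosome 11 (52246527 to 52283383), had a mean of 3.69 against 1.52 TPM, or 2.43-fold, but its shares of 23.4% (13.8 to 35.7) and 18.4% (12 to 26.3) differed by under 10 percentage points. Lef1, on chromosome 3 (131110297 to 131224357), was detected in 1 endoderm-state and 0 progenitor-state cells. For comparison Tcf7l2, the remaining gene of this family, was detected in all 64 endoderm-state cells and in 99.2% of the progenitor-state cells, at means of 62.8 and 43.5 TPM. It was picked for this after its values were seen. In most cells of both states Tcf7l1 and Tcf7l2 were found together: without Tcf7 or Lef1 in 57.8% and 59.2% of cells, and with Tcf7 in a further 17.2% and 12.8%.

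**Figure D3:**
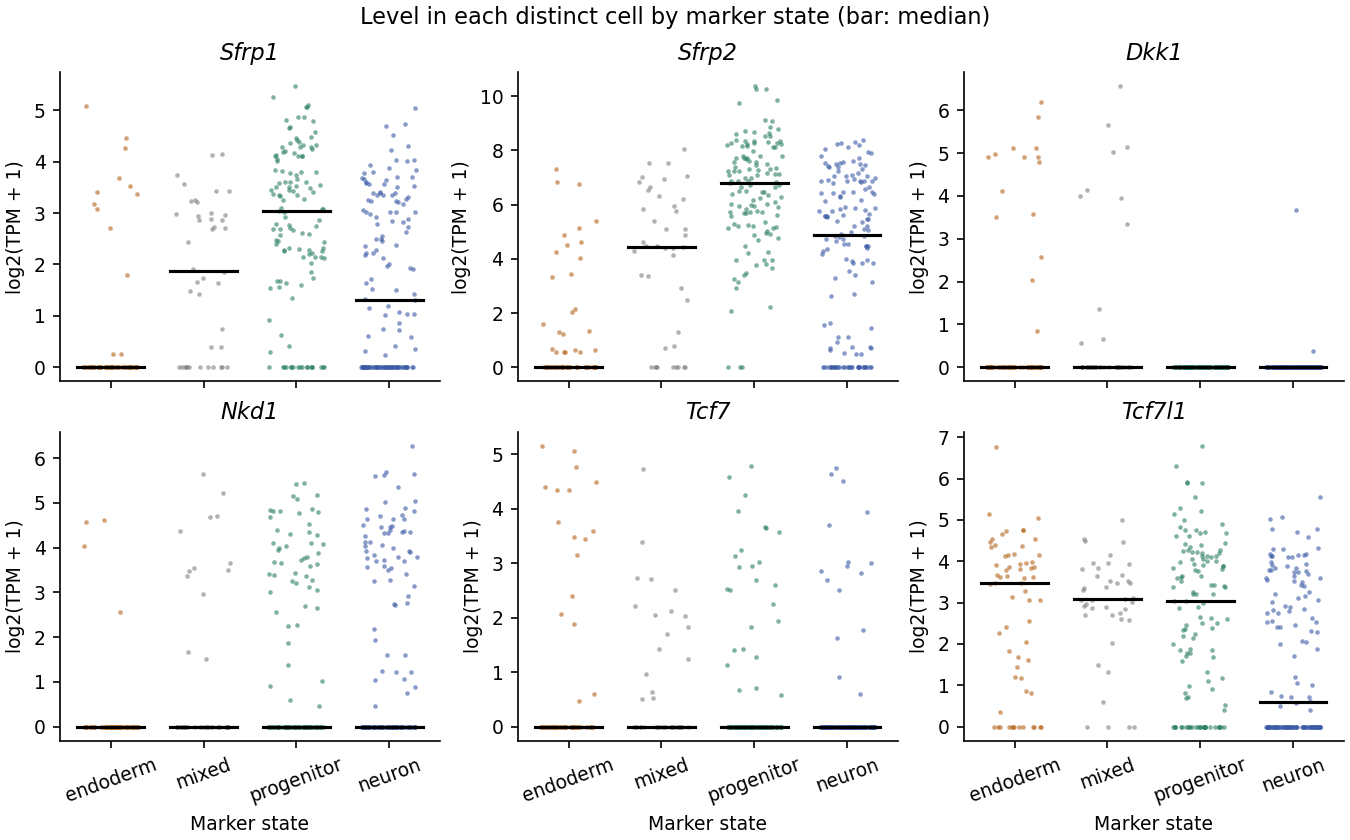
Level of 6 of the genes as log2(TPM + 1) (y axis) in each distinct cell, by endoderm, mixed, progenitor and neuron state (x axis), with 1 point per cell and a bar at the median. Sfrp2 has medians of 0 and 109.4 TPM in the endoderm and progenitor states, Dkk1 is present in 14 endoderm-state and 9 mixed-state cells, and Tcf7l1 is at similar levels in both states.

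Neuron-state against progenitor-state cells gave 3 lower members of 10 (Sfrp1, Sfrp2 and Tcf7l1) and 0 higher ones. By the same rule 2.49% of 12512 genes were lower and 7.85% higher. Dkk1, Sp5 and Lef1 did not reach 10 cells. The median log2 fold of the other 7 members was -0.59, against 0.05 over all genes tested. Sfrp2 ran from 0 to 330.3 TPM in the neuron state with a median of 28.5 TPM, and its mean was 64.9 against 181.3 TPM, or 2.79-fold lower, with 3.03-fold and 2.70-fold within sets 1 and 2 and 2.85-fold over all kept columns. Sfrp1 was detected in 54.8% (46.4 to 63) against 82.4%, and its mean was 2.12-fold lower. Tcf7l1 was detected in 46.6% (38.3 to 55) against 72%, and its mean was 2.19-fold lower. The calls of Sfrp1 and Tcf7l1 were lost within set 2, where the folds were 1.89 and 1.78, and held within set 1 and over all kept columns. Nkd1 was detected in 43.2% (35 to 51.6) of the neuron-state cells, Lgr5 in 26% (19.1 to 33.9), Axin2 in 21.2% (14.9 to 28.8) and Tcf7 in 9.59% (5.34 to 15.6), and none of these was called. Axin2 was called higher within set 2 alone, at 23.5% against 10%. Tcf7 was called lower within set 1 alone, at 8.11% against 20.7% and 2.35-fold, which made 4 lower members there.

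The neuron state was split further, a choice made after these values were seen. Of its cells, 87 also had at least 6 progenitor markers, and 59 had fewer. Sfrp2 was detected in 97.6% of progenitor-state cells, in 92% (84.1 to 96.7) of the neuron-state cells with progenitor markers and in 42.4% (29.6 to 55.9) of those without, at means of 181.3, 97.6 and 16.8 TPM. Medians were 109.4, 69.6 and 0.54 TPM, so the 3 classes stand in this order by each of the measures. Sfrp1 was detected in 82.4%, 67.8% and 35.6%, and Tcf7l1 in 72%, 67.8% and 15.3%. For Sfrp1, Sfrp2 and Tcf7l1 the interval of the progenitor state overlapped that of the class with both marker sets, and the intervals of the 2 neuron classes did not overlap.

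Against progenitor-state cells, the 59 cells without progenitor markers had 4 lower members (Sfrp1 3.27-fold, Sfrp2 10.8-fold, Tcf7 6.55-fold and Tcf7l1 7.80-fold) and 0 higher, where the rule called 11.4% of 11817 genes lower and 9.24% higher. Dkk1, Sp5 and Lef1 did not reach 10 cells in this comparison. Within sets 1 and 2, Sfrp2 was 8.97-fold and 13.8-fold lower, Sfrp1 4.75-fold and 2.89-fold, and Tcf7l1 5.61-fold and 12.5-fold. Tcf7 was called in set 1, where it was listed at 0 in this class, and not in set 2. Lgr5 was also listed at 0 and called lower in set 1, while in set 2 it was at 30.3% against 27.1%. Over all kept columns all 4 were called, with Sfrp2 11.02-fold and Tcf7l1 7.89-fold lower. Nkd1 kept nearly the same mean in these cells, 6.43 against 6.24 TPM, with detected shares of 25.4% (15.0 to 38.4) and 39.2%. Axin2 was at 15.3% and 15.2%, with a highest value of 41.4 TPM in 1 cell. Of the TCF/LEF family, 36 neuron-state cells (24.7%) had none of Tcf7l1, Tcf7l2, Tcf7 and Lef1 detected, against 1 progenitor-state cell (0.8%). Gene number moved with these classes: the medians were 6784, 7485 and 6007 genes above 0. Among all neuron-state cells, Sfrp1 was detected in 39.7% of the cells below the median gene number and in 69.9% of those above, and Tcf7l1 in 28.8% and 64.4%. The part of gene number in the result was not tested.

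**Figure D4:**
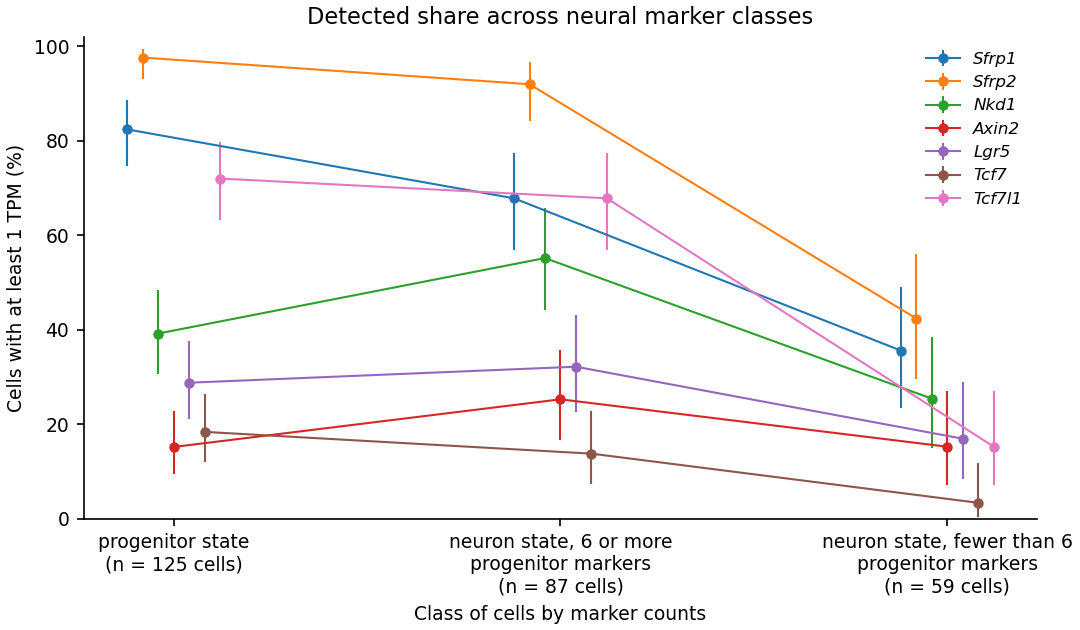
Percent of distinct cells with at least 1 TPM (y axis) for 7 of the genes in progenitor-state cells, neuron-state cells with at least 6 progenitor markers (n = 87) and neuron-state cells with fewer (n = 59) (x axis), with exact 95% intervals as bars and lines joining the points of a gene. Sfrp2 goes from 97.6% over 92% to 42.4% and Tcf7l1 from 72% over 67.8% to 15.3%, while Axin2 is at 15.2%, 25.3% and 15.3%.

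Mixed-state cells, which carry both endoderm and neural markers, stood between the endoderm and progenitor states for the Sfrp genes. Sfrp2 was detected in 73.8% (58 to 86.1) of the 42 cells, with a mean of 46.9 TPM, and Sfrp1 in 64.3% (48.0 to 78.4). Dkk1 was at 21.4% (10.3 to 36.8), level with the endoderm state. Axin2 was detected in 40.5% (25.6 to 56.7), the highest share of any state, with an interval that did not overlap those of the endoderm and progenitor states but did overlap that of the neuron state. Tcf7l1 was detected in 88.1% (74.4 to 96) and Tcf7 in 31% (17.6 to 47.1). The mixed-state share of Axin2 was 44.7% over all kept columns. These cells had the most genes above 0, a median of 8119.5, and whether gene number or 2 cells in 1 capture site enter these shares was not tested.

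Within the progenitor state, cells with Pax3 or Pax7, transcription factor genes of the dorsal neural tube, were set against cells with neither. This compared 73 with 52 cells, whose medians were 7132 and 6043.5 genes above 0. None of the members was called by the rule, which called 3.99% of 11006 genes higher and 0.51% lower in the positive cells. Dkk1, Sp5 and Lef1 did not reach 10 cells and could not be called. Sfrp2 was 3.46-fold lower in mean in the positive cells, 89.5 against 310.1 TPM, and missed the rule because nearly every cell of both groups had it (97.3% and 98.1%). Its values ran from 0 to 371.3 TPM with a median of 63.8 TPM in the positive cells and from 0 to 1318.9 TPM with a median of 263.3 TPM in the negative ones. The ranges overlapped, but the upper quartile of the positive cells, 125.3 TPM, lay below the lower quartile of the negative cells, 129.6 TPM. The fold was 4.13 and 3.25 within sets 1 and 2 and 3.69 over all kept columns. Sfrp1 showed no such gap, at means of 9.46 and 10.01 TPM. Nkd1 was detected in 46.6% (34.8 to 58.6) against 28.8% (17.1 to 43.1) and Lgr5 in 37% (26 to 49.1) against 17.3% (8.23 to 30.3), with mean folds of 1.96 and 1.96, just short of the rule. Over all kept columns Nkd1 passed it, at 2.24-fold, and Lgr5 did not, at 1.49-fold. In set 2 both passed, at 2.84-fold and 2.25-fold. In set 1 neither did, and the mean of Lgr5 was 3.27 against 3.45 TPM there. Axin2 had a mean of 0.44 against 1.29 TPM, or 2.91-fold lower, with shares of 12.3% and 19.2%. Nkd1 also moved with gene number: it was detected in 22.2% of the progenitor-state cells with fewer genes and in 56.5% of those with more, and the part of gene number was not tested.

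The other genes of the pathway were taken from a list of 92, of which 52 were detected in at least 10% of distinct cells and 7 in no cell. Between endoderm and progenitor states 8 were higher and 19 lower in the endoderm state, of the 57 that reached 10 cells, where the rule called 14.6% of all genes tested higher and 20.4% lower. Their median log2 fold was -0.50, against -0.25 over all genes tested. Over all kept columns the counts were 8 and 18. Secreted inhibitors differed by gene between the states. Sfrp5 was detected in 46.9% of the endoderm-state and 0.8% of the progenitor-state cells, at means of 64.5 and 0.021 TPM, the reverse of Sfrp1 and Sfrp2, and in 50% and 38.9% of the endoderm-state cells of sets 1 and 2. Dkk3 was at 46.9% against 11.2%. Frzb, of the inhibitors in this list of other genes the one found in the most cells (58.1%), was at 57.8% against 73.6%. Its means were 23.1 and 51.4 TPM, and it was called lower. Cer1, an inhibitor gene of anterior visceral endoderm, was detected in no cell. It was picked after its value was seen.

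Among 19 ligand genes, of which 7 reached 10 cells, 1 was higher and 5 were lower in the endoderm state. Wnt11, often linked to signalling that does not use beta-catenin, was detected in 39.1% against 2.4%, with means of 28.7 and 0.043 TPM. Wnt7a, the ligand with the largest share of cells (25.8%), was at 3.12% against 46.4% and 18.3-fold lower in mean, and Wnt1 was listed at 0 in the endoderm state. Among 16 receptor and coreceptor genes, of which 14 reached 10 cells, 2 were higher and 6 lower. Fzd10 was detected in 0% against 24%, and Fzd9 in 1.56% against 19.2%. Fzd3 and Ryk had the largest share of cells in this list (84.9% each). Fzd3 was at 28.1% against 96%, while Ryk was at 82.8% against 86.4% and was not called. Of 10 other common targets 6 reached 10 cells. Among them 2 were higher, Cd44 (48.4% against 3.2%) and Tnfrsf19 (18.8% against 4.8%), and 4 were lower, led by Sp8 (3.12% against 64%). Ccnd1, the target with the largest share of cells (49.9%), was lower, at 18.8% against 55.2%. Of 10 nuclear partners 9 reached 10 cells, with 1 higher and 3 lower. Bcl9l was higher, at 31.2% against 8.0%, and Pygo1 lower, at 1.56% against 32.8%. Aes, the partner with the largest share of cells (96.5%), was lower, at 85.9% against 98.4% and 2.40-fold in mean. None of the 12 intracellular transducers was called, and Csnk1a1, a kinase of the destruction complex, was detected in every distinct cell. Genes found in nearly all cells of both states cannot reach a share gap of 10 percentage points. Mean TPM of Csnk1a1 was 99.7 against 199.1. For Ctnnbip1, another of the 12, it was 75.8 against 29.6, or 2.56-fold higher, at 95.3% against 89.6% of cells. Ctnnbip1 was picked after its values were seen. The 2 release genes were not called either, of which Wls, which carries Wnt proteins to the surface, was detected in 83.1% of cells. Of the 8 genes of the R-spondin module only 2 reached 10 cells, and neither was called. Lgr4 of this module was detected in 78.9% of cells.

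**Figure D5:**
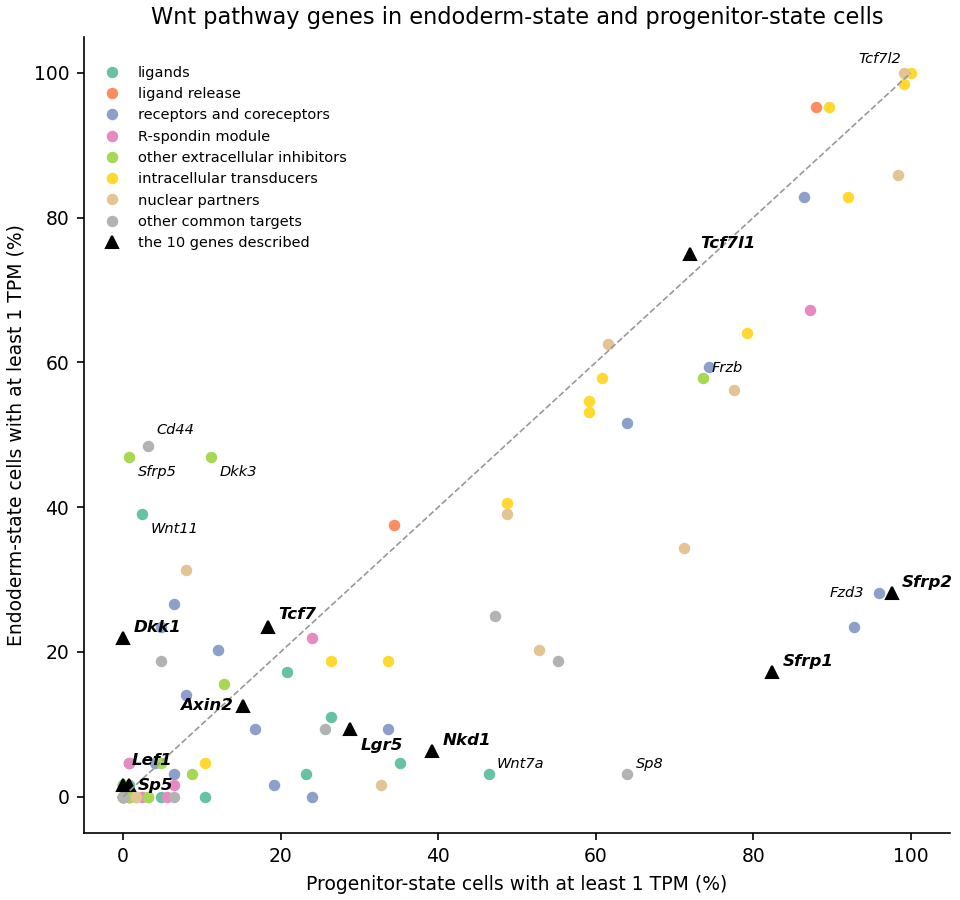
Percent of endoderm-state cells (y axis) against percent of progenitor-state cells (x axis) with at least 1 TPM, for 92 other Wnt pathway genes coloured by role and the 10 genes described as black triangles, with a dashed line at equal shares. Sfrp1 and Sfrp2 lie far below the line and Sfrp5 (46.9% against 0.8%) far above it.

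Between neuron and progenitor states 3 were higher and 8 lower of the 59 that reached 10 cells, where the rule called 7.85% of all genes tested higher and 2.49% lower, with a median log2 fold of -0.07 against 0.05 over all genes tested. Over all kept columns the counts were 3 and 9. The higher genes were Apc2, an Apc relative of neurons, at 45.9% against 10.4% of cells and 5.76-fold, Shisa2 at 3.95-fold and Dvl3 at 2.61-fold. Wnt7a, Wnt7b and Wnt4 were 2.75-fold, 2.34-fold and 2.56-fold lower, Fzd9 and Fzd7 4.08-fold and 2.40-fold, and Myc 2.59-fold. In the neuron-state cells with under 6 progenitor markers, 16 were lower and 3 higher of the 55 that reached 10 cells, where the rule called 11.4% of all genes tested lower and 9.24% higher. Wnt7a was detected there in 1.69% against 46.4%, and Fzd7 in 8.47% against 64%. Wnt1 and Fzd9 were listed at 0 in these cells, and Wnt7b and Wnt4 were 47.5-fold and 20.9-fold lower. The higher genes were Apc2 at 9.05-fold, Dvl3 at 3.26-fold and Tle4 at 2.39-fold. Within the progenitor state, Wnt1 (16.4% against 1.92%) and Wnt4 (34.2% against 15.4%) were higher in the cells with Pax3 or Pax7, and Wnt7a was 2.51-fold lower. These were all the calls among the 50 that reached 10 cells, where the rule called 3.99% of all genes tested higher and 0.51% lower, and over all kept columns 1 was higher and 1 lower.

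Pairs of members were also followed within single cells. Sfrp1 and Sfrp2 were both detected in 200 cells, 86.6% of the cells with Sfrp1 and 69.2% of those with Sfrp2, and Spearman's rho of their TPM over all cells was 0.41. Within the progenitor state rho was 0.10, the lowest of any state, and 100 cells had both. It was 0.32 in the endoderm, 0.51 in the mixed and 0.25 in the neuron state, and 0.34 in cells with no state. Axin2 and Nkd1, both feedback genes, were detected together in 27 cells, 35.1% of the cells with Axin2, and Nkd1 was found in 33.7% of the cells without Axin2. Axin2 and Lgr5 shared 9 cells, with Lgr5 in 11.7% of the cells with Axin2 and in 25.8% of those without. Correlations here are over cells of 1 sample, which share library preparation and differ in depth, and are descriptions.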

How the data were processed

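Single-cell expression values for 464 columns were deposited by the authors as 1 table with no stated unit. STAR, RSEM and the build mm10 appear, without versions, among the submitters' processing notes. The deposited values were taken as TPM, because RSEM gives that unit and the listed genes of a column sum to 54.2% to 95.1% of the TPM total. For annotation and filters, nothing was found in the labels. The header line, which runs on into the first gene's row, was split there. No column name matches a single sample, and all samples share 1 group.

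The cell filter kept 458 columns. Repeat columns (correlation over 0.93) were reduced to the set 1 column, which left 403 cells: 64 endoderm, 42 mixed, 125 progenitor, 146 neuron and 26 with no state. This was done with Python 3.11.15, pandas 2.3.3 and SciPy 1.17.1. A gene was called by a rule of size (2-fold in mean TPM, 10 percentage points, 10 cells). Its code was checked on simulated data with groups of equal size, for the size of the fold and the direction of calls. That check gives no error rate for the states compared here. No doublet caller was run. Members, marker lists and pathway list were chosen with earlier results of these data known. Named pathway genes are, for each comparison, up to 6 called genes with the largest fold in each direction. The gene of each role with the largest share of cells is named too. Tcf7l2, Cer1 and Ctnnbip1 were added after their values were seen. Tle5 appears as Aes. Alternatives numbered 19, and 1 was added later.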

Additional observations from a re-analysis of the deposited data

How the results depend on the processing

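Across 19 other ways of processing and 1 added after seeing the data, among the 7 members with a finite fold (all but Dkk1, Sp5 and Lef1) 0 called folds reversed, 11 lost and 14 gained a call, and Sfrp1 and Sfrp2 stayed lower in the endoderm state in 19 of 19. The count of members lower in the endoderm state (4) was 2 with detection among the 4000 highest genes of a cell, where Nkd1 and Lgr5 were lost. Lgr5 was also lost with differences of mean log2(TPM + 1), and so kept its call in 17 of 19. The count higher there (1, Dkk1) was 0 in column set 1 alone, in set 2 alone, with detection among the 4000 highest genes and with differences of mean log2(TPM + 1), and 2, with Tcf7, when no share difference was needed. The count lower in the neuron state (3) was 1 in set 2 alone, with detection among the 4000 highest genes and with markers at 1 TPM. It was 4 in set 1 alone and in neuron-state cells with fewer than 6 progenitor markers, and the count higher (0) was 1 in set 2 alone. Sfrp1 and Tcf7l1 each kept the lower call in the neuron state in 16 of 20, so each was also lost in a setting not named here. In the comparison by Pax3 or Pax7, the count higher (0) was 1 over all kept columns, with the mean of repeat columns, without the 5% of cells with the most genes, with markers at 1 TPM and with 5 of 12 markers, and 2 in set 2 alone. The count lower (0) was 1 with detection among the 4000 highest genes and 2 when no share difference was needed. The cause was not tested. Rescaling by broadly detected genes moved the median log2 fold of the tested genes with a finite fold, endoderm against progenitor state, from -0.24 to 0.07. At 5 TPM Sfrp1 was detected in 41.2% and Axin2 in 7.94% of cells. No paired analysis was possible because all samples belong to 1 group and the columns carry no replicate number. Depth per cell is unknown, so a share of 0 limits cells with a value and not cells that express a gene.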

Other observations

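Cells with and without Dkk1 were compared among the cells with at least 6 endoderm markers, a choice made after the values were seen. Of these cells 23 had Dkk1 and 83 did not. Sox7, an endoderm transcription factor gene, was detected in 78.3% of the cells with Dkk1 and 48.2% of those without, Cubn, an endocytic receptor gene, in 78.3% and 55.4%, and Sfrp5 in 52.2% and 41%. Sfrp1 was detected in 17.4% and 41%. Gata4 was at 95.7% and 95.2%, and Gata6 at 78.3% and 77.1%. Sox7, Cubn and Gata4 were among the endoderm markers that selected these cells. Of the endoderm genes compared, Sox7 and Cubn had the widest gaps in share, and Dab2, Col4a1 and Col4a2 were at 100% in both groups. Mean TPM was lower in the cells with Dkk1 for Foxa2, Lama1, Lamb1, Col4a1 and Col4a2. It was higher there for Sox7, Cubn, Gata4, Gata6, Sox17, Pdgfra and Dab2. The differences have no replicate check.

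For each member detected in at least 10% of distinct cells, the most similar genes were sought by Spearman correlation of TPM over all distinct cells among 11129 genes. Sfrp2 was closest to Fgfbp3 (rho 0.71), Hes5 (0.65) and Moxd1 (0.64). Sfrp1 was closest to Ccnd2 (0.47), Mest (0.46) and Hes5 (0.46), and Tcf7l1 to Pdpn (0.39), Tcf7l2 (0.32) and Pth1r (0.31). For Axin2, Nkd1, Lgr5 and Tcf7 the highest values were 0.24 (Med13), 0.33 (Sh3bgrl), 0.29 (Ube2c) and 0.27 (Phf11d), too weak in sparse values to read. Hes5 was 1 of the 12 markers that define the progenitor state.

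The rare members fell into few cells. Lef1 stood highest, at 31.8 TPM, in a cell with 2059 genes above 0 and no state, near the bound of the cell filter, and at 25.1 TPM in a neuron-state cell. Of the 5 cells with Sp5, 2 were in the mixed state, and both of these also had Dkk1. Sp5 and Dkk1 stood at 12.7 and 15.1 TPM in 1 of them. In the other they stood at 1.22 and 1.55 TPM, near the bound of detection.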
